A study of Mus musculus with 19 samples.

Results

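The genes described here carry glucose into the cell and break it down to lactate: the glucose transporter Slc2a1 and 9 enzymes of glycolysis, Hk2, Gpi1, Pfkl, Aldoa, Tpi1, Pgk1, Eno1, Pkm and Ldha. They were chosen by name as a set of transporter and enzyme genes, and every probe set that the array's gene table gives to one of them alone was taken. The table names 8 of the 10 genes through 20 of the array's 45101 probe sets, among 18193 genes in all. Gpi1 and Eno1 are not named by the table and were not analysed here. A gene was represented by its probe set with the highest mean, and the other probe sets are described beside it. Since probe sets differ in how they bind, levels are compared between cells and never between genes.

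The arrays measured RNA of skeletal progenitor cells sorted by flow cytometry from the dissociated fore and hind limbs of mice at postnatal day 3. The sort kept cells without CD45 (blood cells), Ter119 (red cells) or Tie2 (endothelium) and with integrin AlphaV. By Thy and 6C3 these were Thy-6C3-, Thy+6C3- or Thy-6C3+ cells, and CD105 divided each into a positive and a negative population, which makes 6 populations of 3 arrays. Another array carries the label of adult cells that are Thy+6C3+CD105+ and entered no test. The genotype is given as wild-type, although the growth protocol speaks of GFP-labeled mice, and each sample came from a pooled litter. Nothing states that the 3 arrays of a population came from separate litters, so p-values measure the spread between these arrays, which may be technical. Replicates 2 and 3 of Thy-6C3+CD105- bear titles that name Thy+6C3+CD105- cells, and the population field of the labels was followed here. For the adult array the source field names sternum and ear while the tissue field names limbs. The question the sort poses for these genes is whether their RNA differs when 1 surface antigen changes, and a step here means the log2 level with an antigen minus that without it, the other antigens being equal.

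As background, hexokinase traps glucose as its phosphate, phosphofructokinase makes the committing step, aldolase and triose phosphate isomerase give the triose phosphates, and phosphoglycerate kinase and pyruvate kinase return ATP. Lactate dehydrogenase then turns pyruvate to lactate and regenerates the NAD that the pathway needs. Growth plate cartilage has no blood vessels and its chondrocytes rely heavily on glycolysis, and hypoxia-inducible factors and Myc are known to activate many genes of the pathway. Such factors bind short cores in promoters.

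The promoters of Slc2a1, Hk2, Pfkl and Pgk1 are shown because these are the 4 members whose levels differed between the populations. Each is the 250 bases before the annotated start in RefSeq, build GRCm38.p6, read 5′ to 3′ on the gene's strand, and capitals mark the core of the hypoxia response element, ACGTG or GCGTG on either strand (CACGT or CACGC where it lies on the other strand). The windows are chr4:119108495-119108744 on the plus strand for Slc2a1, chr6:82774455-82774704 on the minus strand for Hk2, chr10:78009808-78010057 on the minus strand for Pfkl and chrX:106186850-106187099 on the plus strand for Pgk1.
Slc2a1: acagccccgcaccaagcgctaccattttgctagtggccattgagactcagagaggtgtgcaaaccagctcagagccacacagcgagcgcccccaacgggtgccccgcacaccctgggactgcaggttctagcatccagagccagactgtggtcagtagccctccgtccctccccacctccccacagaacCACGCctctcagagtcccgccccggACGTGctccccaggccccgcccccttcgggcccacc
Hk2: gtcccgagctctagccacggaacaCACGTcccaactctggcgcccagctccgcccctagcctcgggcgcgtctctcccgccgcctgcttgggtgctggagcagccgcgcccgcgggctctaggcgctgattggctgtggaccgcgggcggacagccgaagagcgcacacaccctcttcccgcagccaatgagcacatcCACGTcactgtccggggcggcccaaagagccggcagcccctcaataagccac
Pfkl: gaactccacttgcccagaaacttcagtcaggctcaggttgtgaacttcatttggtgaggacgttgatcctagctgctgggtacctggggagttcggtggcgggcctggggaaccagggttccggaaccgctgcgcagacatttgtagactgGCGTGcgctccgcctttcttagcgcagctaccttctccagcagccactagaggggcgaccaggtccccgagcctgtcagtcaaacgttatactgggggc
Pgk1: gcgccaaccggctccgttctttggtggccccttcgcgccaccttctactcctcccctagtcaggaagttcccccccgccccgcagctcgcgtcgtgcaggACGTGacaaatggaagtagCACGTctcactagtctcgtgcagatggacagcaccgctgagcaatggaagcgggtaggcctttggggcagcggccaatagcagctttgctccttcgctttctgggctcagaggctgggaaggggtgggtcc
Slc2a1 held a GCGTG core on the other strand with its first base at position -61 and an ACGTG core at -36 from the start. Hk2 held ACGTG on the other strand at -226 and -52, Pfkl held GCGTG at -99, and Pgk1 held ACGTG at -150 and, on the other strand, at -131. Among the other members Aldoa, Pkm and Ldha held a core in at least 1 of their windows and Tpi1 held none, which makes 7 of 8 members. Ldha, which is not among the 4, had 5 ACGTG matches over both strands in 1 window, more than any window shown. Of all 27025 genes with a window, 41.5% held a core in at least 1, and members with several annotated starts have more windows in which to match. A match is a description of letters and not a measured binding site.

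The deposited array medians lay between 5.60 and 6.02 on the log2 scale, and the 19 arrays were brought to a common distribution before levels were compared. Spiked poly-A controls, RNAs that are added before amplification, split the neonatal arrays into a set of 11 with mean control levels of 6.83 to 8.66 and a set of 7 with 3.89 to 5.56, and every population had at least 1 array in each. Leaving out replicate 3 of Thy+6C3-CD105- took the share of all genes that passed with Thy in CD105- cells from 18% to 9.71%, and the main counts of that step are given without it as well. Marker genes of skeletal muscle averaged 5.29 to 5.98 and those of red cells 4.60 to 5.64 over the neonatal arrays.

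Over the 6 populations 4 of the 8 members differed by limma's moderated F-test, against 10.1% of all genes: Slc2a1 (adjusted p = 0.00983), Hk2 (adjusted p = 0.00092), Pfkl (adjusted p = 0.00879) and Pgk1 (adjusted p = 0.016). They are the transporter, the 2 kinases at the entry of the pathway and the first of its ATP-yielding kinases. In all 4 the populations with the lowest means were the Thy+6C3- ones. Aldoa (0.799), Tpi1 (0.576), Pkm (0.919) and Ldha (0.764) had adjusted p-values of the same test far above 0.05, and their population means spanned 0.28 to 0.50 on the log2 scale. The means of the other 4 spanned 0.72 for Pgk1, 1.42 for Hk2, 1.49 for Pfkl and 1.71 for Slc2a1. In bulk samples of sorted cells, fewer cells of a type and less RNA per cell cannot be told apart.

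**Figure D1:**
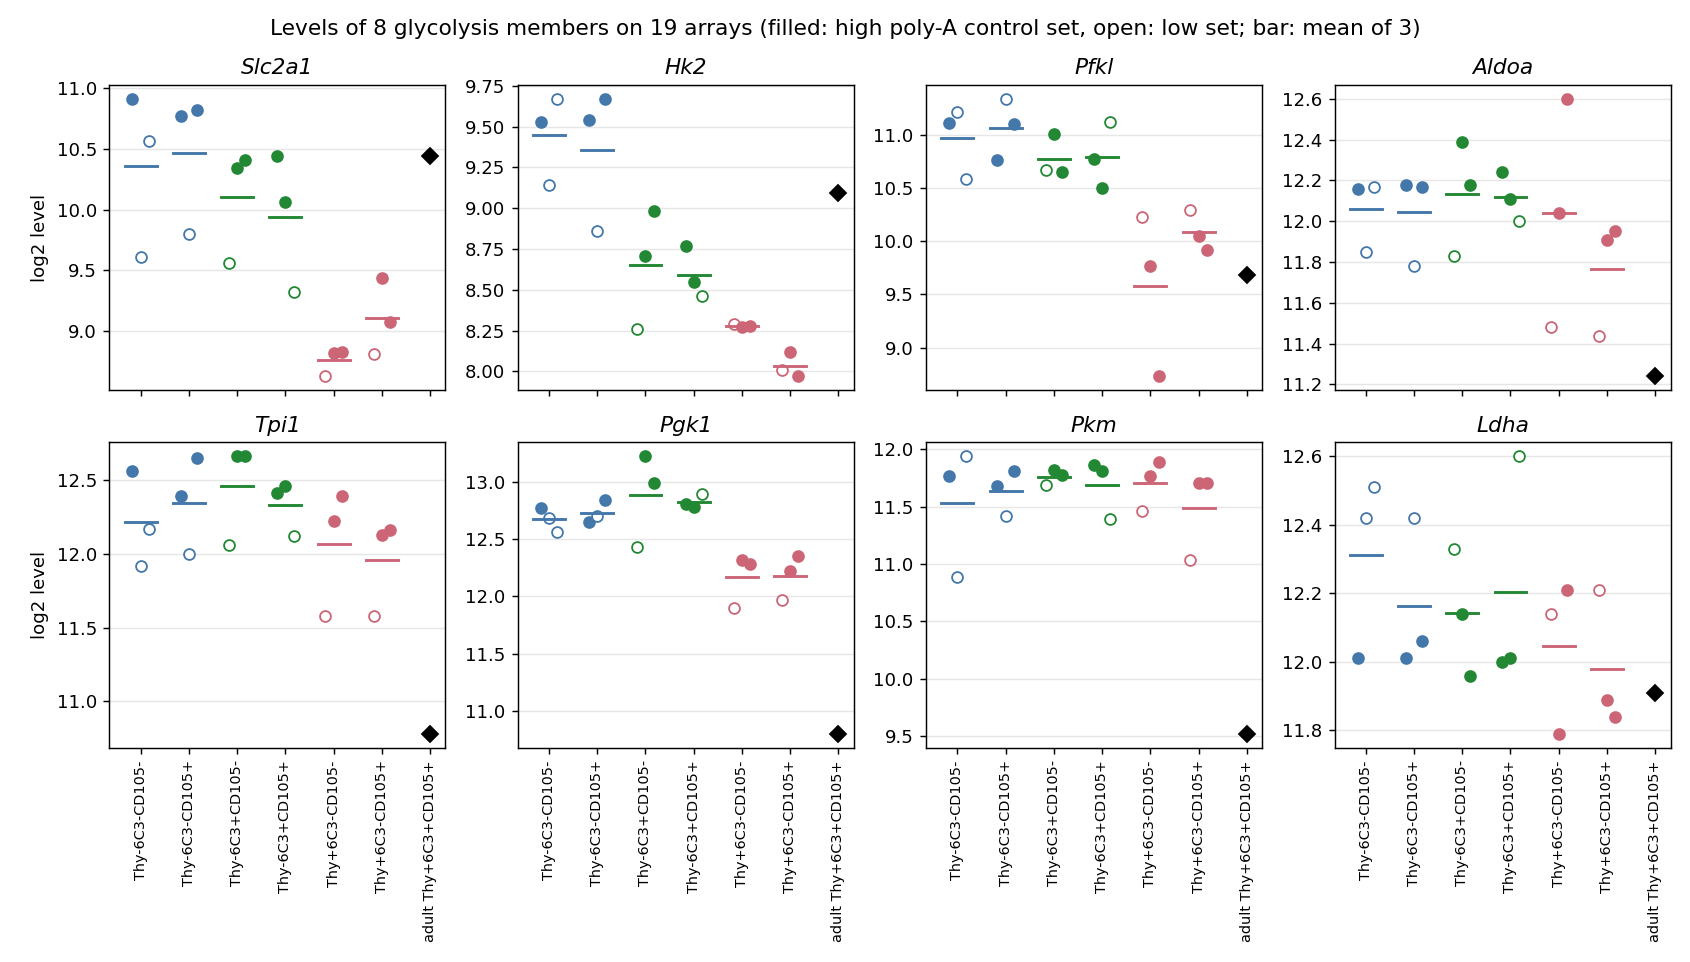
Log2 level of each of the 8 members on all 19 arrays, 1 panel per gene, with the populations along the x axis. Filled points belong to the high and open points to the low poly-A control set, bars are means of 3 arrays, and the black diamond is the adult array. Slc2a1, Hk2, Pfkl and Pgk1 sit lowest in the Thy+ populations, while the populations overlap for Aldoa, Tpi1, Pkm and Ldha.

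Slc2a1 encodes GLUT1, the basal glucose transporter of many cells. Its log2 levels were 10.91, 9.61 and 10.56 on the Thy-6C3-CD105- arrays and 10.77, 9.80 and 10.82 on the Thy-6C3-CD105+ arrays, in the order of replicates 1 to 3. In the Thy+ populations it read 8.81, 9.44 and 9.08 (Thy+6C3-CD105+) and 8.63, 8.82 and 8.83 (Thy+6C3-CD105-). The 6C3+ populations lay between, at 10.44, 10.06 and 9.32 (Thy-6C3+CD105+) and at 9.56, 10.34 and 10.41 (Thy-6C3+CD105-). All 6 Thy+6C3- arrays were below all 6 Thy-6C3- arrays, while the 6C3+ arrays overlapped both. Replicate 3 of Thy-6C3+CD105+ (9.32) was below replicate 2 of Thy+6C3-CD105+ (9.44). With Thy, Slc2a1 fell 2.56-fold in CD105+ cells (log2 change -1.36, SE 0.36, 95% interval -2.11 to -0.60, adjusted p = 0.0256 by limma) and 3.03-fold in CD105- cells (-1.60, SE 0.36, interval -2.35 to -0.85, adjusted p = 0.00599). The call in CD105+ cells was lost without any 1 of 4 arrays: Thy-6C3-CD105+ replicate 1 (adjusted p = 0.12) or 3 (0.141) and Thy+6C3-CD105+ replicate 1 (0.115) or 3 (0.086), with log2 changes from -1.34 to -1.18, and with a common median alone as the scaling (-1.27, adjusted p = 0.0614). In CD105- cells the call was kept under every alternative run.

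Hk2, the inducible hexokinase that sits on mitochondria, showed the narrowest spread in Thy+ cells. It read 9.53, 9.14 and 9.67 on the Thy-6C3-CD105- arrays and 9.54, 8.86 and 9.67 on the Thy-6C3-CD105+ arrays. The Thy+6C3-CD105+ arrays gave 8.01, 8.12 and 7.97, and the Thy+6C3-CD105- arrays 8.29, 8.27 and 8.28. The 6C3+ arrays gave 8.77, 8.55 and 8.46 with CD105 and 8.26, 8.71 and 8.98 without it. Every Thy+6C3- array was below every Thy-6C3- array, and replicate 1 of Thy-6C3+CD105- was the single 6C3+ array at the Thy+6C3- level. The fall with Thy was 2.50-fold in CD105+ cells (log2 change -1.32 ± 0.23 SE, adjusted p = 0.000917) and 2.25-fold in CD105- cells (-1.17 ± 0.23, adjusted p = 0.00233). Both calls held in each of the 31 alternatives run, with adjusted p-values up to 0.00975 and 0.0344. In the order of the means, Thy-6C3+CD105+ and Thy+6C3-CD105- were the first neighbours whose ranges did not overlap, with a gap of 0.31.

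Hk2 was also the member with the largest difference between 6C3+ and 6C3- cells. Its log2 change with 6C3 was -0.76 ± 0.23 (SE) in CD105+ cells (adjusted p = 0.149) and -0.80 ± 0.23 in CD105- cells (adjusted p = 0.0752), and neither passed. In both steps the 3 arrays with 6C3 lay below the 3 without it. When Thy-6C3-CD105+ replicate 2, the lowest Thy-6C3- array for this gene, was left out, both differences passed (-1.01, adjusted p = 0.0374, and -0.80, adjusted p = 0.0443). That array has no part in the CD105- difference, where the change stayed at -0.80 and only the shared estimate of the spread and the adjustment could move.

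Pfkl encodes the liver-type subunit of phosphofructokinase. Levels were 11.11, 11.22 and 10.59 in Thy-6C3-CD105- cells and 10.76, 11.34 and 11.10 in Thy-6C3-CD105+ cells. Thy+ cells gave 10.29, 10.05 and 9.92 with CD105 and 10.23, 9.77 and 8.73 without it. In 6C3+ cells the values were 10.77, 10.50 and 11.12 with CD105 and 10.67, 11.01 and 10.65 without it. All 6 Thy+6C3- arrays were below the other 12 neonatal arrays, and replicate 3 of Thy+6C3-CD105- was the lowest of all at 8.73. The other 12 include replicates 2 and 3 of Thy-6C3+CD105- (11.01 and 10.65), whose titles name Thy+ cells. The log2 change with Thy was -1.39 ± 0.30 (SE) in CD105- cells, 2.63-fold lower (adjusted p = 0.00438), and it fell short of the threshold in CD105+ cells, at -0.98 ± 0.30 (adjusted p = 0.0571). The CD105- call was kept without replicate 3 of Thy+6C3-CD105- and with the mean of the gene's 3 probe sets, where the change was -0.62, and was lost when the fit held the arrays of the compared populations alone (adjusted p = 0.0574). The difference between the 2 Thy steps was itself not past the test (0.41, SE 0.42, adjusted p = 0.612).

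Pgk1, the first ATP-yielding enzyme of the pathway, was also lowest in the Thy+6C3- populations among the neonatal ones, at a smaller size. Its highest means were those of the 6C3+ populations. It read 12.77, 12.68 and 12.56 on the Thy-6C3-CD105- arrays and 12.65, 12.70 and 12.84 on the Thy-6C3-CD105+ arrays. Thy+ cells gave 11.97, 12.22 and 12.35 with CD105 and 11.90, 12.32 and 12.28 without it. The 6C3+ values were 12.80, 12.78 and 12.89 with CD105 and 12.43, 13.22 and 12.99 without it. The Thy+6C3- arrays were again below all others, the highest of them at 12.35 and the lowest of the others at 12.43. The arrays at 13.22 and 12.99 bear titles that name Thy+6C3+CD105- cells, so by title not all Thy+ arrays would be low. Grouped by title, Thy-6C3+CD105- keeps the array at 12.43 alone. Neither Thy step passed at the threshold in the fit of all arrays: -0.55 ± 0.17 (SE) in CD105+ cells (adjusted p = 0.0712) and -0.50 ± 0.17 in CD105- cells (adjusted p = 0.0532). Both passed under several other settings, among them the fit with the poly-A control set as a block (adjusted p = 0.0212 and 0.0111).

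The enzymes between, Aldoa (aldolase) and Tpi1 (triose phosphate isomerase), did not differ beyond the spread of their arrays. Aldoa ran from 11.44 to 12.60 on the 18 neonatal arrays with a median of 12.07, and Tpi1 from 11.58 to 12.66 with a median of 12.19. The lowest arrays were replicate 1 of both Thy+ populations for both genes, at 11.44 and 11.48 for Aldoa and at 11.58 in both for Tpi1, while replicate 3 of Thy+6C3-CD105- was the highest Aldoa array. With Thy, Aldoa changed by -0.28 ± 0.23 (SE) in CD105+ cells and -0.02 ± 0.23 in CD105- cells, and Tpi1 by -0.39 ± 0.24 and -0.15 ± 0.24, none of them past the test. The 95% intervals of the Thy steps reach from -0.77 to 0.47 for Aldoa and from -0.90 to 0.36 for Tpi1, so changes of up to about that size are not excluded by these arrays.

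Pkm, pyruvate kinase of muscle and most dividing cells, and Ldha, the lactate dehydrogenase subunit of glycolytic tissues, were the members with the closest population means. Pkm read 11.77, 10.89 and 11.94 in Thy-6C3-CD105- cells, where replicate 2 was the lowest of all neonatal arrays, and 11.04 to 11.89 on the Thy+ arrays. Its change with Thy was -0.15 ± 0.24 (SE) in CD105+ cells and 0.17 ± 0.24 in CD105- cells, and the second of these read -0.15 in the deposited values and -0.30 when arrays shared their median alone. Ldha ran from 11.79 to 12.60 with a median of 12.10, and changed by -0.18 ± 0.19 and -0.26 ± 0.19. Neither gene passed in either step after quantile normalization. In CD105- cells the Ldha change passed by limma in the deposited values (-0.57, adjusted p = 0.0461) and with a common median alone (-0.71, adjusted p = 0.0231).

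**Figure D2:**
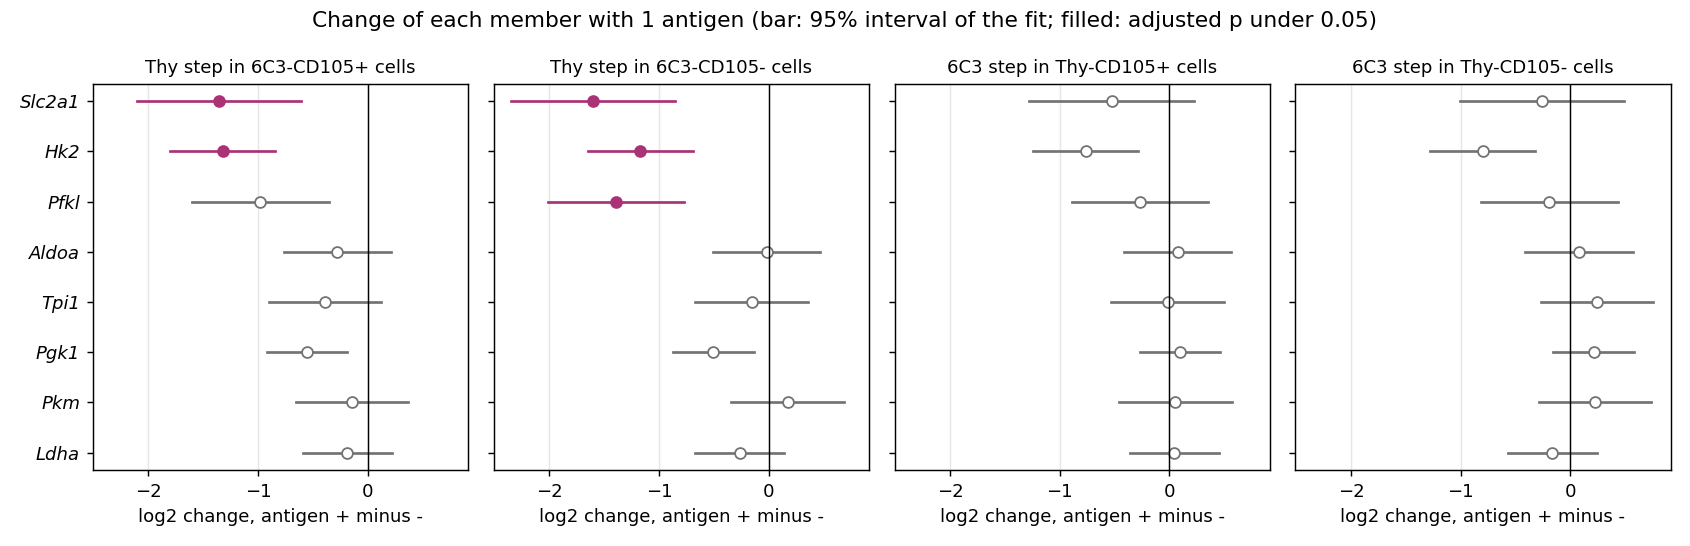
Log2 change of each of the 8 members in the Thy and 6C3 steps, antigen-positive minus antigen-negative, with 1 panel per step. Bars are 95% intervals of the limma fit and filled points have an adjusted p under 0.05. Slc2a1 and Hk2 are filled in both Thy steps and Pfkl in that of CD105- cells, and no point is filled in the 6C3 steps.

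In CD105+ cells 2 of 8 members fell and none rose, where 6.66% of all genes passed in either direction and 2.63% fell. In CD105- cells 3 of 8 fell and none rose, where 18% of all genes passed and 7.45% fell. Without replicate 3 of Thy+6C3-CD105- the same 3 members fell, where 9.71% of all genes passed and 4.53% fell. For 4 of 8 members in each Thy step, Slc2a1, Hk2, Pfkl and Pgk1, all 3 Thy+ arrays lay below all 3 Thy- arrays, as was so for 11.8% of all genes in CD105+ cells and 11.7% in CD105- cells. The median log2 change of the 8 members was -0.47 in CD105+ cells and -0.38 in CD105- cells, beside -0.02 and 0.13 for all genes. How many genes fell in CD105- cells depends on the scaling: 1915 genes rose and 1356 fell after quantile normalization, against 1642 and 2035 with the values as deposited and 923 and 2644 with a common median alone, where the median change of all genes was 0.09 and -0.05. With either of those scalings the members that fell in CD105- cells were 5, Pgk1 and Ldha among them. Without replicate 3 of Thy+6C3-CD105- 943 rose and 824 fell. The 2 Thy steps share no array.

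The same populations differed in markers of cartilage and of some other cells. Of all genes 6.66% passed with Thy in CD105+ and 18% in CD105- cells, and the counts of each list stand beside these shares. All 12 chondrocyte markers, from Col2a1 to Epyc, fell in both Thy steps, and the mean of the list was 12.13 to 12.44 on the Thy-6C3- arrays, 9.06 to 9.53 on the Thy+ arrays and 9.59 to 10.15 on the 6C3+ arrays. Of 12 immediate early genes, a class that cell dissociation can induce, 9 fell in CD105+ and 10 in CD105- cells, with list means of 11.45 to 12.41 on the Thy-6C3- and 9.84 to 10.64 on the Thy+ arrays. All 8 pericyte and smooth muscle markers rose in Thy+ CD105+ cells, where their mean was 10.62 to 10.79 against 7.98 to 8.44 in Thy-6C3-CD105+ cells. In Thy+ CD105- cells 3 of the 8 rose and 1 fell, with list means of 8.51 to 8.87 against 8.15 to 8.38. In Thy+ CD105- cells 4 of 8 keratinocyte markers rose, with list means of 6.57 to 7.18 against 5.53 to 5.63. Of 11 proliferation genes 1 rose in CD105+ cells and 5 in CD105- cells, though 1 in CD105- cells under either other scaling. Of 8 endothelial markers Esam, Flt1 and Tek rose in CD105+ cells and Tek in CD105- cells. List means were 5.66 to 5.83 on the Thy+6C3-CD105+ arrays against 5.03 to 5.46 without Thy, while the median change of the list was -0.002. In that step Kdr had a higher mean with Thy and Pecam1, Cdh5, Tie1 and Emcn lower ones, none of them past the test. Of 8 myeloid markers Laptm5 and Csf1r rose in CD105- cells, with list means of 5.97 to 6.43 against 5.58 to 5.83. Ptprc, Tyrobp and Lyz2 had higher means there too and Cd14 (6.31 against 7.04), Cd68 and Fcer1g lower ones, none of them past the test. The myeloid and endothelial counts in CD105- cells and the proliferation count in CD105+ cells lie near the shares of all genes. Without replicate 3 of Thy+6C3-CD105- 9.71% of all genes passed in CD105- cells. The counts there were 12 chondrocyte and 10 immediate early markers lower, and 3 keratinocyte, 6 proliferation, 1 endothelial and 1 myeloid higher. The pericyte and smooth muscle count without it is not given here. The part of these cell types, of dissociation and of proliferation in the values of the glycolysis genes was not tested.

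Across the other steps no member passed. In the 6C3 step none of 8 passed by limma in CD105+ or in CD105- cells, and 1 in each, Hk2, had an unadjusted p under 0.05. Of all genes 1.36% and 2.74% passed, and 7.61% and 13.9% had such an unadjusted p. Hk2 was likewise the single member whose 3 arrays with 6C3 lay below the 3 without it, as did 6.96% and 6.61% of all genes. The 6C3 step and the Thy step of 1 CD105 status share the 3 Thy-6C3- arrays of that status, so their changes are given side by side and not compared as independent. For Slc2a1 the change was -0.53 with 6C3 beside -1.36 with Thy in CD105+ cells, and -0.26 beside -1.60 in CD105- cells. For Pgk1 it was 0.10 and 0.21 with 6C3, beside -0.55 and -0.50 with Thy.

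CD105 made no difference that passed in any member. None of 8 passed by limma in Thy-6C3-, Thy+6C3- or Thy-6C3+ cells, none had an unadjusted p under 0.05, and of all genes 0.00550%, 1.02% and 0% passed. The largest difference was that of Pfkl in Thy+6C3- cells, 0.51 ± 0.30 (SE), where Thy+6C3-CD105- replicate 3 is the low array. Hk2 in Thy+6C3- cells was the single member lower in each of the 3 CD105+ than in each of the 3 CD105- arrays. The share of all genes separated in this way in this step is not given here. The Hk2 change of -0.25 did not pass, and it read 0.08 in the deposited values and 0.22 with a common median alone. The dependence of the Thy step on CD105 and of the 6C3 step on CD105 passed in none of 8 members by limma, with no unadjusted p under 0.05, where 0.269% and 0% of all genes passed. For Slc2a1 the difference between the Thy steps was 0.25 with a 95% interval of -0.82 to 1.31, so the 2 steps are known to be alike only within that range.

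The spread of the members inside a population went with the poly-A control set. With population means taken out, arrays of the high set exceeded those of the low set by 0.70 ± 0.14 (SE) for Slc2a1 (adjusted p = 0.00708), 0.54 ± 0.07 for Tpi1 (adjusted p = 0.00046) and 0.42 ± 0.10 for Aldoa (adjusted p = 0.0226). Ldha went the other way, -0.36 ± 0.08 (adjusted p = 0.0105). These 4 of 8 members compare with 5.74% of all genes. All 7 low-set arrays were below their own population's mean for Tpi1 and none of 11 high-set arrays was, whereas for Ldha none of the 7 and 10 of the 11 were. Hk2 (0.28), Pfkl (-0.30), Pgk1 (0.25) and Pkm (0.38) did not pass. Control probe sets for the 3′ end of Gapdh exceeded those for its 5′ end by 1.69 to 2.41 in the high and 1.52 to 2.82 in the low set. For Actb the gap was 0.91 to 1.36 and 0.99 to 1.87. The widest neonatal gaps were on replicate 1 of Thy+6C3-CD105- (2.82 and 1.87) and of Thy+6C3-CD105+ (2.69 and 1.51), the arrays lowest for Aldoa and Tpi1. What else differed between the 2 sets of arrays, and the part of these gaps in the members' levels, was not tested.

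**Figure D3:**
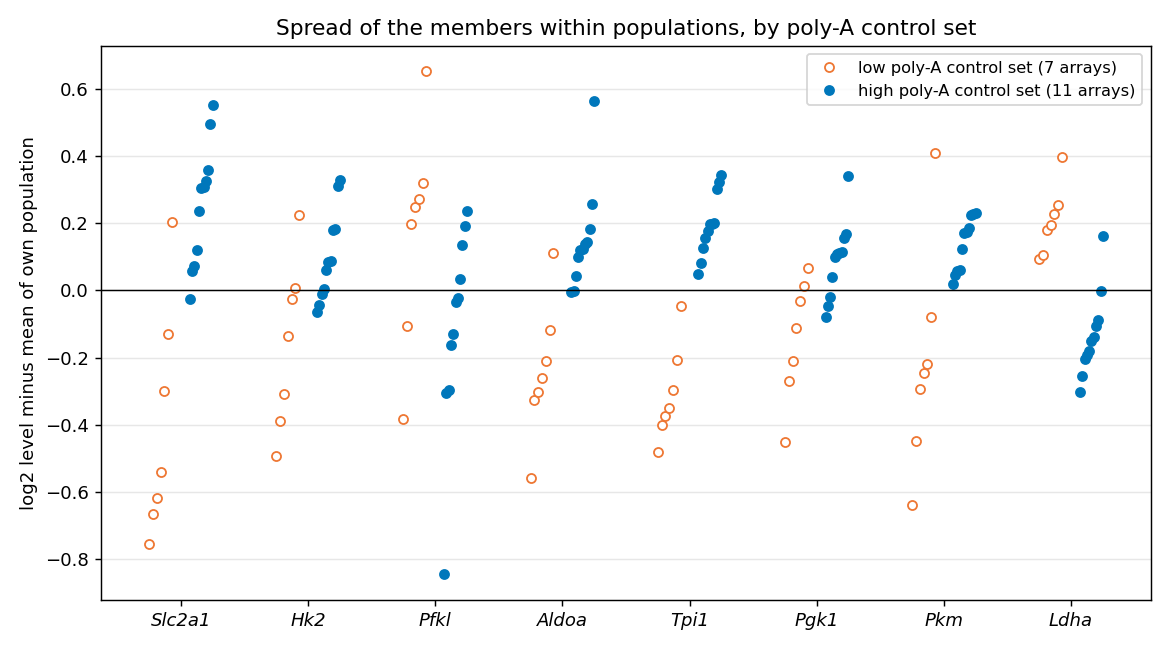
Log2 level minus the mean of the array's own population for each of the 8 members, 1 point per neonatal array. Open points are the 7 arrays of the low and filled points the 11 arrays of the high poly-A control set. For Tpi1 all 7 open points lie below 0 and all 11 filled points above it, and for Ldha all 7 open points lie above 0.

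With the poly-A set as a block in the fit, 5 of 8 members fell with Thy in CD105+ cells: Slc2a1 (-1.36, adjusted p = 0.000767), Hk2 (-1.32, adjusted p = 0.000257), Pgk1 (-0.55, adjusted p = 0.0212), Pfkl (-0.98, adjusted p = 0.0355) and Tpi1 (-0.39, adjusted p = 0.0461). In CD105- cells 4 fell: Slc2a1 (-1.84, adjusted p = 5.42e-05), Hk2 (-1.26, adjusted p = 0.000409), Pfkl (-1.29, adjusted p = 0.00511) and Pgk1 (-0.59, adjusted p = 0.0111). In that fit 8.38% of all genes passed with Thy in CD105+ and 21.6% in CD105- cells. Hk2 also fell with 6C3 in CD105- cells (-0.89, adjusted p = 0.0166). On the 11 high-set arrays alone, where Thy-6C3-CD105- has 1 array that is taken to vary like the others, the Thy change of Slc2a1 in CD105+ cells was -1.54 and that of Hk2 -1.56, and both passed. There the Thy change in CD105- cells was -2.09 for Slc2a1 (adjusted p = 0.00298), -1.26 for Hk2 (adjusted p = 0.0344) and -1.86 for Pfkl (adjusted p = 0.0411).

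Some members moved together from array to array. Over the 18 neonatal arrays Slc2a1 and Hk2 had a Pearson r of 0.86, and after population means were taken out it was still 0.86. Aldoa and Tpi1 had 0.86 and 0.88 in the same way. Slc2a1 and Pfkl, both lower in Thy+ cells, had 0.62 over arrays and -0.35 within populations, and Slc2a1 and Ldha had -0.03 and -0.76. These are descriptions over 18 arrays that share amplification, scaling and the 2 poly-A control sets, with no test.

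The probe sets of a gene were in accord for the transporter and less so further down. All 3 Slc2a1 probe sets fell in both Thy steps, with log2 changes of -1.44 to -1.36 in CD105+ and -1.83 to -1.60 in CD105- cells, each past the test over all probe sets. Of the 3 Pfkl probe sets 1 passed in each step and not the same one: 1450269_a_at in CD105+ cells (-1.09, adjusted p = 0.0171) and 1439148_a_at in CD105- cells (-1.39, adjusted p = 0.00592). The other of these read -0.98 (adjusted p = 0.0757, 1439148_a_at) in CD105+ and -0.71 (adjusted p = 0.0717, 1450269_a_at) in CD105- cells. The third, 1453541_at, read 4.96 to 5.94 throughout, with changes of 0.33 and 0.24 that did not pass. The other 2 Pgk1 probe sets gave -0.29 and -0.19 in CD105+ and 0.03 and 0.10 in CD105- cells, none past the test. In CD105+ cells all 3 Pgk1 probe sets were lower on each Thy+ than on each Thy- array, and in CD105- cells this was so for 1417864_at alone. None of 5 Aldoa and 3 Tpi1 probe sets passed in a Thy step, and Hk2, Pkm and Ldha have 1 probe set each.

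Beyond the members, 10 lists of genes around the pathway hold 96 measured genes. With Thy in CD105+ cells 10 of the 96 fell and 1 rose, and in CD105- cells 22 fell and 14 rose, which is 11.5% and 37.5% of them beside 6.66% and 18% of all genes. The split in CD105- cells depends on the scaling, with 32 lower and 6 higher in the deposited values and 37 and 6 with a common median alone. Array Thy+6C3-CD105- replicate 3 carried a large part of the second count: without it 14 fell and 5 rose, 19.8% of them beside 9.71% of all genes. The 9 genes that passed in both steps went the same way in both: Aldoc, Ldhb, Fbp1, Myc, Bnip3, Car12, P4ha2 and Bhlhe40 fell and Car9 rose. The share of all genes that passed in both steps, or went the same way in both, is not given here. The 9 are thus a description without a background. Of the 36 genes that passed in CD105- cells, 17 also passed under both other scalings, with the poly-A block and without that replicate, 14 of them lower and 3 higher.

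Other enzymes of glycolysis numbered 15, of which 2 fell in CD105+ cells, where 6.66% of all genes passed. In CD105- cells 2 of the 15 fell and 2 rose, where 18% of all genes passed. Aldoc, the brain-type aldolase, fell most: its mean of 8.54 in Thy-6C3-CD105+ cells stood against 6.33 with Thy (-2.20 ± 0.26 SE, adjusted p = 2.29e-05), and 9.03 in Thy-6C3-CD105- cells against 6.62 (-2.41 ± 0.26, adjusted p = 9.21e-06). It fell with 6C3 too, with changes of -1.79 in CD105+ and -2.26 in CD105- cells. Ldhb, the lactate dehydrogenase subunit of oxidative tissues, changed by -1.20 and -0.70 with Thy. The 2 that rose in CD105- cells, Hk3 (0.78) and Hkdc1 (1.0), no longer passed without replicate 3 of Thy+6C3-CD105-.

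Among the 10 genes that set the flow through glycolysis none passed in CD105+ cells, where 6.66% of all genes passed. In CD105- cells Pfkfb3, which makes the activator of phosphofructokinase, changed by -1.08 (adjusted p = 0.0196) and passed in each other setting as well. Pdp2 (-0.95), Tigar (0.71) and Pfkfb2 (0.83) passed too but not without that replicate, and Tigar and Pfkfb2 under neither other scaling. Of 12 other sugar and lactate carriers none passed in CD105+ cells. In CD105- cells, where 18% of all genes passed, 5 of these carriers rose and 1 fell. Slc2a9, a urate and hexose carrier, rose by 1.37 (adjusted p = 0.00529) and was the single one of these to pass in each other setting. None of the 5 measured genes that bring pyruvate into mitochondria passed by limma in either Thy step, and none of them had an unadjusted p under 0.05.

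In the side branches, the 2 enzymes that run glycolysis backwards at fructose bisphosphate fell in CD105+ cells, Fbp1 with a change of -2.35 and Fbp2 of -1.45, and Fbp1 fell in CD105- cells with -1.74. Of 12 genes of glycogen and hexosamine metabolism Gfpt2 fell in CD105+ cells (-1.19), where 6.66% of all genes passed. In CD105- cells 5 of the 12 fell and 1 rose, where 18% of all genes passed. Gfpt1, the first enzyme of hexosamine synthesis, changed there by -1.55 and Pygl, the liver-type glycogen phosphorylase, by -1.03, and both passed in each other setting. Gnpnat1 (-1.37), Gbe1 (-1.29) and Pgm1 (-0.71), the last named after its value was seen, did not pass without replicate 3 of Thy+6C3-CD105-, and Pygb (0.81) did not pass under the other scalings. In the pentose phosphate and serine branches Rpe (-1.51) and Phgdh (0.86) passed in CD105- cells, and neither passed without that replicate. None of these branch genes passed with Thy in CD105+ cells other than Gfpt2, Fbp1 and Fbp2.

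Of 10 regulators of glycolytic genes 1 fell with Thy in CD105+ cells, a count near the 6.66% of all genes that passed there. In CD105- cells 4 fell and 1 rose, where 18% of all genes passed. Without replicate 3 of Thy+6C3-CD105- these counts were 3 and 0, where 9.71% of all genes passed. Arnt, Vhl, Egln1, Hif1an and Mycn passed in neither Thy step. Myc, the transcription factor, fell in both steps (-1.59, adjusted p = 0.0184, and -1.96, adjusted p = 0.00316) and with 6C3 in CD105- cells (-2.02). Hif1a and Epas1, which encode the oxygen-sensitive subunits of the hypoxia-inducible factors, fell in CD105- cells, with changes of -1.62 (adjusted p = 0.0075) and -2.95 (adjusted p = 1.86e-07). In CD105+ cells their changes were -0.54 and 0.36 and did not pass. The mean Hif1a level was 10.01 with an SD of 1.21 over the 3 Thy+6C3-CD105- arrays, and without replicate 3 its change was -0.92 (adjusted p = 0.00263). Egln3 (-0.86) and Egln2 (0.61), which encode prolyl hydroxylases that mark those subunits for decay, passed in CD105- cells but not with either other scaling.

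Of 15 other genes known to respond to hypoxia 4 fell and 1 rose in CD105+ cells, and 6 fell and 2 rose in CD105- cells. In these steps 6.66% and 18% of all genes passed. Car12, a carbonic anhydrase, fell with changes of -2.12 and -2.91, and Bhlhe40, a transcriptional repressor, with -1.64 and -1.72. P4ha2, a collagen prolyl hydroxylase, and Bnip3, a mitophagy receptor, fell in both as well (-0.998 and -1.18, and -1.10 and -0.80). Car9, another carbonic anhydrase and a common readout of hypoxia-inducible factor activity, went against them, rising by 1.31 (adjusted p = 0.00235) and by 1.5 (adjusted p = 0.00066). Ddit4 (-1.41) and Vegfa (-1.07) also fell in CD105- cells and Adm (1.71) rose, and without replicate 3 of Thy+6C3-CD105- 5 fell and 2 rose, Vegfa no longer passing.

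**Figure D4:**
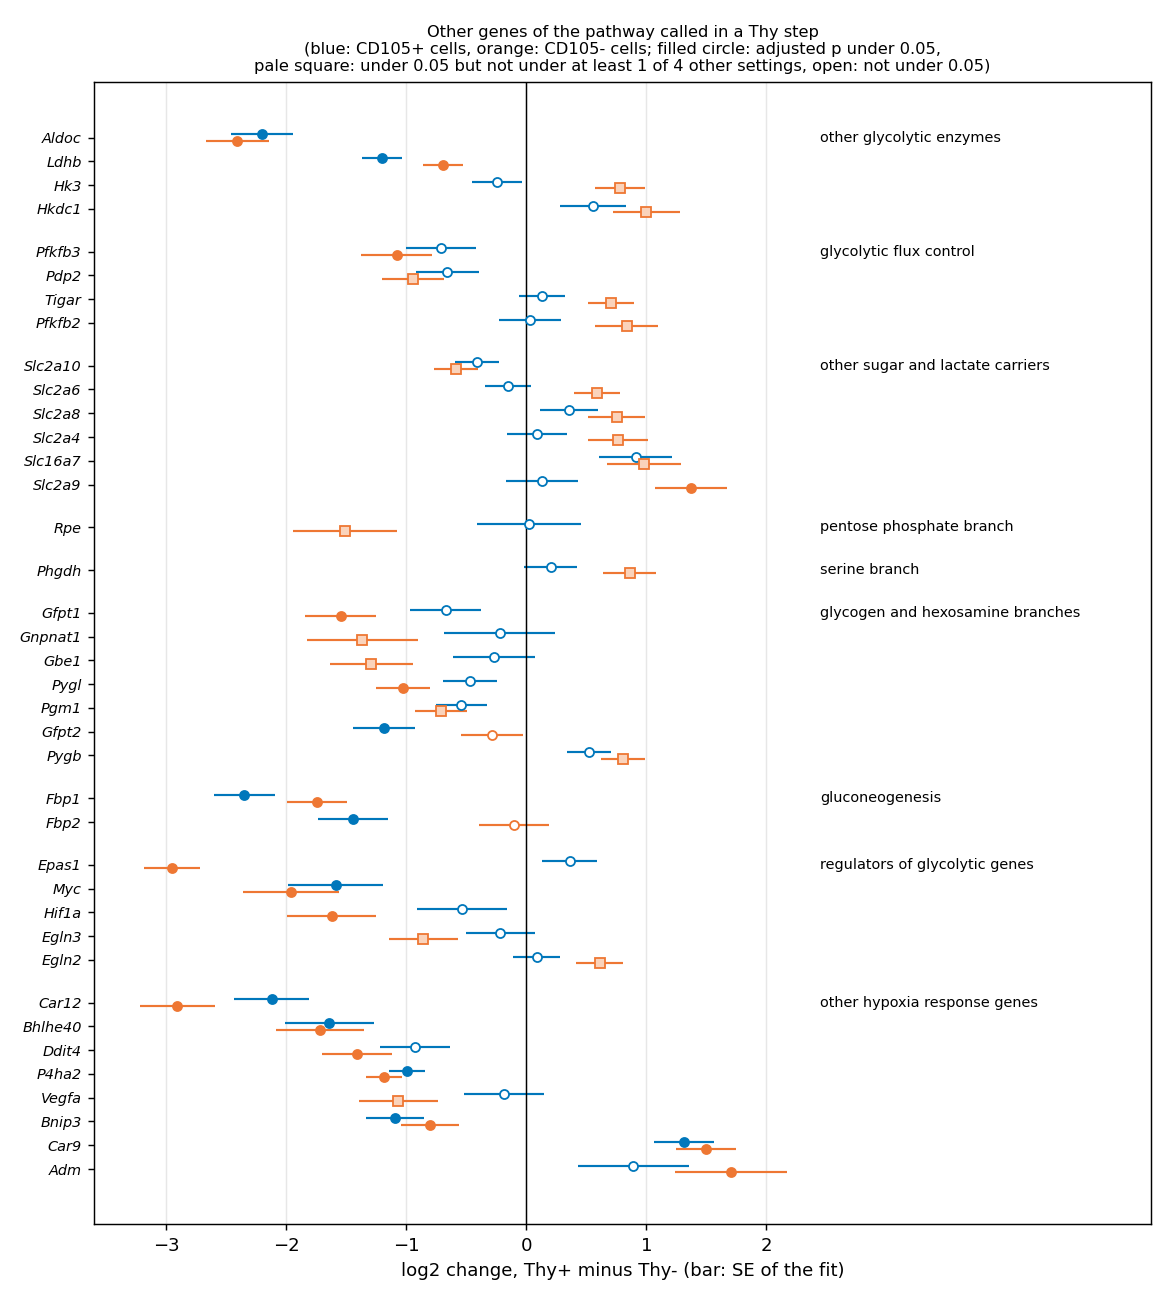
Log2 change with Thy, Thy+ minus Thy-, of the 38 genes around the pathway that passed in at least 1 Thy step, grouped by list, in CD105+ cells (blue) and CD105- cells (orange). Bars are SE of the limma fit. Filled circles passed, pale squares passed but not under at least 1 of 4 other settings, and open circles did not pass. Most filled circles lie left of 0, and Car9 is the gene filled on the right in both colours.

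The genes most like the members in level were sought among 9088 genes of at least the median gene's mean. The measure was Pearson's r with the mean of the 8 members, each centred on its own mean, over the 18 neonatal arrays. That mean was between -0.54 and -0.27 on the 6 Thy+6C3- arrays and between -0.11 and 0.43 on the other 12. The closest were Loxl3 (r = 0.948), a lysyl oxidase that crosslinks collagen, Sox5 (0.939), a cartilage transcription factor, Bhlhe40 (0.936), Siah2 (0.935), a ubiquitin ligase, and Slc39a14 (0.931), a zinc carrier. Over the 6 population means their r was 0.936 to 0.992. These values are descriptions with no test, and the arrays share scaling and poly-A control sets.

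The adult array was below all 18 neonatal arrays for 4 of 8 members, Aldoa (11.24 against a lowest neonatal value of 11.44), Tpi1 (10.78 against 11.58), Pgk1 (10.80 against 11.90) and Pkm (9.52 against 10.89), as it was for 14.2% of all genes. For Slc2a1 (10.44), Hk2 (9.09), Pfkl (9.68) and Ldha (11.91) it lay inside the neonatal range. The array's own control probe set for the 3′ end of Gapdh, the dehydrogenase of the same pathway, read 11.83 on it and 12.50 to 13.07 on the neonatal arrays. With a single array there is no replicate and no test, and age, site and antigen combination cannot be told apart.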

How the data were processed

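The deposited table gives expression for 45101 probe sets on 19 Affymetrix mouse genome arrays as log2 values, ranging from 2.55 to 14.6, per the deposited file. Per the labels' protocols, RNA was amplified in 2 rounds and hybridized by the authors. How scans became these values is not stated in the sources used. Since the deposited medians differed by more than 0.1, the arrays were quantile normalized. Of the probe sets 64 were controls, 34945 had 1 gene symbol, 932 several and 9160 none. No filter on low values was used.

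The model, in limma 3.58.1 (R 4.3.3), gave each population its own mean across 18 neonatal arrays (12 residual and 5.38 prior degrees of freedom), contrasts for each antigen step and a moderated variance with a trend. Tests were two-sided, and genes were called below 0.05 after Benjamini-Hochberg adjustment across all 18193. The fit was tested on simulated data. Genes so called are said to have passed. Each population had 3 arrays, which limits the precision. The poly-A sets were split at the largest gap of the mean of 24 control probe sets, at 6.19.

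The members, the 20 gene lists and the tests were chosen with earlier results of these data known. Named genes are the members, up to 4 genes that passed per list, direction and step, and the 5 most alike. Of 200 list genes 188 were measured, and the others are not reported here. Alternatives changed the scaling, the choice of probe sets, the genes tested, the variance model, array weights, the arrays, a block for replicate number or poly-A set and the grouping by title. Promoters are from RefSeq, build GRCm38.p6. Figures were drawn with matplotlib 3.10.9.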

Additional observations from a re-analysis of the deposited data

How the results depend on the processing

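The falls of Hk2 in both Thy steps and of Slc2a1 in CD105- cells passed in all 31 alternatives, that of Pfkl in CD105- cells in 30 and that of Slc2a1 in CD105+ cells in 26. Slc2a1 in CD105+ cells also failed with a common median alone (adjusted p = 0.0614). Of the 8 members, the number that passed with Thy in CD105- cells was 3, and 5 with the values as deposited or a common median alone. Of all genes 18%, 20.2% and 19.6% passed in these settings, in that order. In CD105+ cells the number of members was 2, but 1 with a common median alone and 5 with the poly-A set as a block. There 6.66%, 6.37% and 8.38% of all genes passed, in that order. It was 4 with array weights or the compared populations alone, and 1 to 3 with each array left out, the lowest without Thy-6C3-CD105+ or Thy+6C3-CD105+ replicate 1 or 3. With 6C3 in CD105- cells the number of members was 0, but 1 with a common median alone, array weights, the poly-A block or genes above the median level only, and 0 to 1 with each array left out in either 6C3 step, Thy-6C3-CD105+ replicate 2 giving the 1. For array weights, the compared populations alone, genes above the median level and most arrays left out, the share of all genes that passed is not given here. Those counts have no background beside them.

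Replicate numbers showed no pairing common to all populations: deviations of same-numbered arrays had a median r of 0.03 over 45 pairs (-0.56 to 0.67). Of these pairs 19 were over 0.1, and 7 of 18 arrays were closest to their own number. The check pools all pairs of populations, so it cannot exclude that numbers pair the arrays of some of them. With a replicate block 3 members passed with Thy in CD105+ and 4 in CD105- cells, Pgk1 being added (adjusted p = 0.0451 and 0.0362), and 4 over all populations. The share of all genes that passed in that fit is not given here. Pgk1 or Pfkl also passed in a Thy step without Thy+6C3-CD105- replicate 1, 2 or 3 or Thy-6C3+CD105- replicate 1 or 2.

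Of 1729 changes of members under alternatives 136 turned sign, 104 of them by no more than 1 SE, and none was called before or after. The 32 that turned by more follow. With the values as deposited, Pkm read -0.15 (Thy, CD105-), and with CD105 in Thy+6C3- cells Hk2 read 0.077, Aldoa 0.017, Tpi1 0.20, Pkm 0.11 and Ldha 0.26. With a common median alone these were -0.30, and 0.22, 0.16, 0.35, 0.26 and 0.41, while Pgk1 read -0.05 with 6C3 in CD105- cells and 0.13 with CD105 in Thy-6C3+ cells. On high-set arrays Ldha read 0.044 with 6C3 in CD105- cells. Grouped by title, Aldoa read -0.22, Tpi1 -0.16 and Pgk1 -0.24 with 6C3 in CD105- cells, and with CD105 in Thy-6C3+ cells Slc2a1 read 0.38, Hk2 0.33, Aldoa 0.28, Tpi1 0.27 and Pgk1 0.39. With each array left out, changes with Thy in CD105- cells ran from -0.15 to 0.38 (Pkm) and -0.30 to 0.26 (Aldoa), with 6C3 from -0.092 to 0.43 (Pkm, CD105-) and -0.16 to 0.17 (Ldha, CD105+), and with CD105 in Thy-6C3- cells from -0.27 to 0.44 (Slc2a1), -0.25 to 0.15 (Hk2) and -0.22 to 0.30 (Pkm), in Thy+6C3- cells from -0.56 to 0.007 (Aldoa) and in Thy-6C3+ cells from -0.14 to 0.16 (Ldha). The cause was not tested. The fit of every probe set and the settings of the other lists were chosen after seeing the data. With 6C3 in CD105- cells 226 genes rose and 272 fell, against 176 and 236 as deposited and 82 and 315 with a common median alone.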
